A study of Mus musculus with 6 samples.

Results

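Voltage-gated sodium channels are described here by 6 genes, chosen by name: the pore-forming alpha subunit genes Scn1a, Scn2a1 (also written Scn2a), Scn3a and Scn8a, and the auxiliary beta subunit genes Scn2b and Scn3b. Each matched 1 of the 37620 genes in the deposited table. The names were set with earlier results of these data known. RNA came from the pre-limbic cortex (PLc) of C57Bl/6 mice aged 9 weeks. Mice 1, 6 and 10 received saline, and mice 3, 5 and 9 received ketamine at 30 mg/kg, intraperitoneally, once daily for 5 days. Tissue was taken 2 days after the last injection, and each mouse gave its own library. Ketamine blocks the NMDA receptor, and the comparison asks how gene expression in this cortex differs after repeated doses.

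Sodium channels open when the membrane is depolarised and carry the inward current of the action potential, then close within milliseconds through an inactivation gate. The alpha subunit forms the pore, the voltage sensors and the gate, and beta subunits alter gating, placement in the membrane and adhesion. In cortex, Scn1a is known for its role in fast-spiking parvalbumin (PV) interneurons, Scn2a1 and Scn8a for the axon initial segment of excitatory neurons, and Scn3a for its high expression before birth. Tissue RNA holds all of these cells, so fewer cells of a type and less RNA per cell cannot be told apart.

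The alpha subunit genes are close copies of each other, which bears on how reads can be assigned to them. The stretches they share were short in relation to the transcripts. Windows of 100 bases, the length of a read, were taken along the longest annotated coding transcript of each gene and compared with the transcripts of the other sodium channel genes. Windows found elsewhere with at most 2 mismatches made up 8.30% for Scn2a1, 7.79% for Scn3a and 4.46% for Scn1a. Identical windows made up 1.54%, 2.95% and 1.22%. Scn8a, Scn2b and Scn3b had none of either kind. The closest pair was Scn2a1 and Scn3a, with 670 windows in common. Reads from these windows may have been split between copies or dropped, and the setting is not given in the sources used here.

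Scn1a (ENSMUSG00000064329), Scn2a1 (ENSMUSG00000075318) and Scn3a (ENSMUSG00000057182) lie near each other on chromosome 2 of mm9, at chr2:66108838-66278897, chr2:65458914-65605504 and chr2:65295175-65405684. Scn8a (ENSMUSG00000023033) lies at chr15:100785829-100876360. Scn2b (ENSMUSG00000070304) and Scn3b (ENSMUSG00000049281) lie at chr9:44925959-44938153 and chr9:40076801-40099203. None of the 6 shared exon bases with another annotated gene. The annotation holds a second, 1072-base gene model named Scn8a upstream of the main one. It was counted apart, had between 9.97 and 188 normalized counts and was not added to Scn8a.

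Library depth and tissue make-up were checked first. Reads recovered from the deposited values came to between 26273436 and 32643726 per library. The 6 sodium channel genes had between 1112 and 16981 reads each, so counting error was at most 3% and the spread between mice was far larger. Slc17a7, the vesicular glutamate transporter of cortical excitatory neurons, was present in every library, at 22152 to 49417 normalized counts (counts divided by the library's size factor). Several libraries stood apart. The summed level of 12 striatal markers came to 61053 in ketamine mouse 3 and 31626 in ketamine mouse 5, and to 8855 to 11544 in the other 4 mice, and Drd1, a dopamine receptor gene, was 2631 in mouse 3 and 1237 in mouse 5 against at most 237 elsewhere. The sum of 8 olfactory bulb markers was higher in every ketamine mouse. It came to 4727, 2804 and 11190 in mice 3, 5 and 9, against at most 2594 with saline. All 8 had a higher mean in ketamine, and 4 of them were higher in every ketamine mouse, beside 5.69% of all genes. DESeq2 called 3 of the 8, beside 1.11% of all genes, and limma and edgeR called 0, with 0% of all genes called. The sum of 10 oligodendrocyte markers was 409833 in saline mouse 10 against at most 175883 in any other mouse. Of all these markers, 1 olfactory bulb gene was at 0 in a mouse.

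All 6 genes were expressed in every mouse, and their levels differed widely per length. In normalized counts per kb of exon, the level in saline mice was 1971 ± 331 for Scn2b, 1403 ± 421 for Scn2a1, 1077 ± 166 for Scn8a, 886 ± 137 for Scn3b, 460.1 ± 73.1 for Scn1a and 117 ± 17.6 for Scn3a (SD, n = 3). Along this order, the ranges of saline mice overlapped between Scn2b and Scn2a1, between Scn2a1 and Scn8a, and between Scn8a and Scn3b. Scn3b and Scn1a did not overlap, and neither did Scn1a and Scn3a. In ketamine mice the order was the same except that Scn3b, at 855 ± 100, stood above Scn8a, at 774 ± 280 (SD, n = 3).

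None of the 6 genes differed between ketamine and saline beyond the spread between mice. Of the 6, 5 had a lower mean in ketamine and 1, Scn3a, a higher mean, with a median log2 fold change of -0.22 beside -0.01 over all 16127 genes tested. limma on log2(normalized count + 1) called 0 of them at an adjusted p under 0.05, with 0% of all genes called, and edgeR's quasi-likelihood test on the recovered reads also called 0, with 0% of all genes. DESeq2 on the recovered reads called 0 of the 6, with 1.11% of all genes called. No member had an unadjusted p under 0.05 by limma, beside 5.81% of all genes. The groups overlapped for every one of the 6, and 10.3% of all genes had groups that did not overlap. With 6 genes, counts of 0 do not set them apart from these shares.

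**Figure D1:**
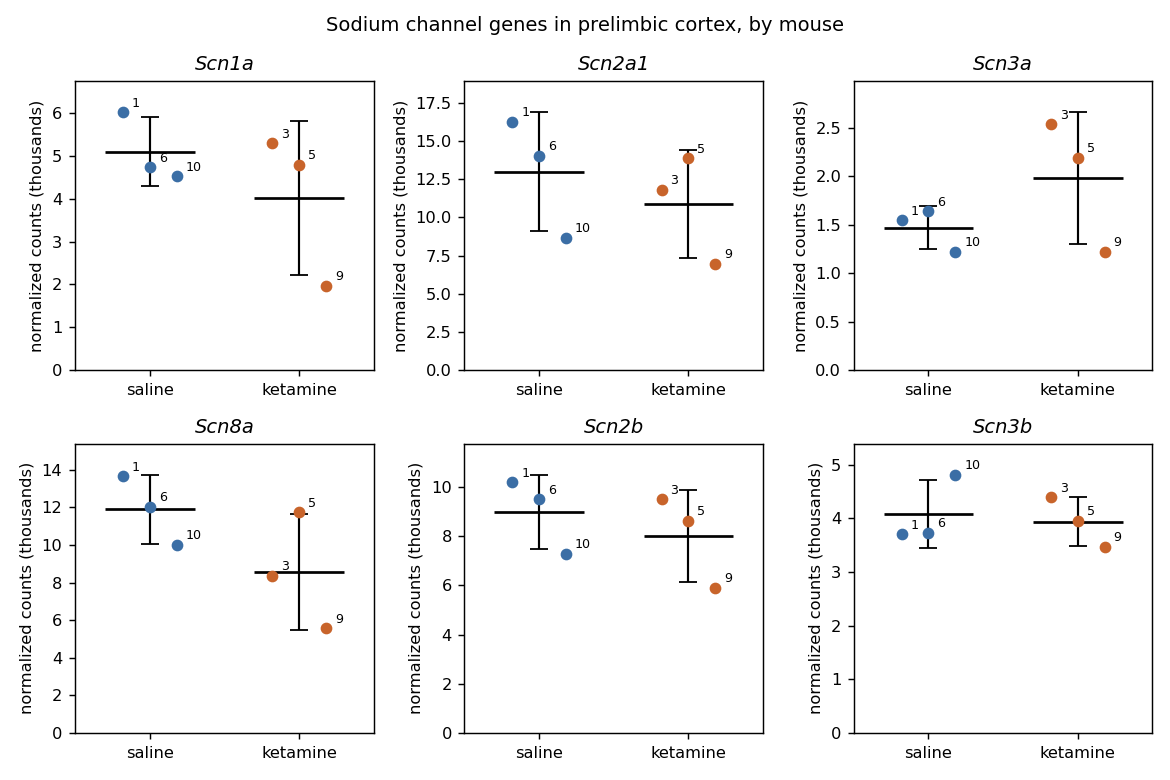
Normalized counts (vertical axis, from 0, in units of 1000) of each of the 6 sodium channel genes in 3 saline mice (blue) and 3 ketamine mice (orange). Points are mice with their numbers, black lines the mean and SD. Mouse 9 is the lowest of all 6 mice for every gene but Scn3a, where saline mouse 10 is level with it.

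Scn2a1, the most abundant alpha subunit gene, had 16266, 14031 and 8681 normalized counts in saline mice 1, 6 and 10, against 11815, 13854 and 6974 in ketamine mice 3, 5 and 9. Mouse 10 was low among saline mice and mouse 9 among ketamine mice, and the groups overlapped. The log2 fold change was -0.27 (standard error 0.324, 95% confidence interval -1.03 to 0.50, adjusted p = 0.999 by limma, exact permutation p = 0.5). Leaving out ketamine mouse 9 turned it to 0.03.

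Scn8a, whose channel drives repetitive firing, had 13681, 12035 and 10022 normalized counts in saline mice 1, 6 and 10. Ketamine mice 3, 5 and 9 had 8377, 11756 and 5561. Mice 3 and 9 were below every saline mouse, and mouse 5 lay within the saline range. This was the lowest fold change of the 6, at -0.53 on the log2 scale (standard error 0.278, 95% confidence interval -1.18 to 0.12, unadjusted p = 0.0964, adjusted p = 0.969 by limma, exact permutation p = 0.2). The interval reaches from 0.44 to 1.09 times the saline level. It was -0.25 with mouse 9 left out.

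Scn1a, the gene mutated in Dravet syndrome, had 6024, 4743 and 4527 normalized counts in saline mice 1, 6 and 10. It had 5294, 4796 and 1970 in ketamine mice 3, 5 and 9. Mice 3 and 5 lay within the saline range and mouse 9 had less than any other mouse by a wide margin. The log2 fold change of -0.46 (standard error 0.367, 95% confidence interval -1.32 to 0.41, adjusted p = 0.999 by limma, exact permutation p = 0.6) came to -0.01 without mouse 9. Pvalb, the PV gene of the interneurons in which Scn1a is known to act, did not follow the same order. Its normalized counts were 535, 516 and 670 for mice 3, 5 and 9, below the 893 to 2261 of the saline mice. In a list of 10 PV interneuron markers, 2 were higher and 8 lower in ketamine. Their summed levels were 14076 to 18441 in saline mice, and 19059.5, 15303 and 9609 in ketamine mice 3, 5 and 9. Among ketamine mice, this sum and Syt2, Kcnc2, Erbb4, Tac1, Lhx6 and Sox6 stood in the order of Scn1a. Besides Pvalb, Kcns3, Kcnc1 and Cox6a2 did not. The part of these markers in the Scn1a values was not tested.

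Scn3a, the least abundant of the 6, went the other way. It had 1550, 1642 and 1221 normalized counts in saline mice 1, 6 and 10, against 2535, 2192 and 1224 in ketamine mice 3, 5 and 9. Mice 3 and 5 were above every saline mouse, while mouse 9 was as low as saline mouse 10. The log2 fold change was 0.38 (standard error 0.28, 95% confidence interval -0.28 to 1.03, adjusted p = 0.999 by limma, exact permutation p = 0.3). It was 0.69 without mouse 9 (adjusted p = 0.267 by limma) and -0.25 without mice 3 and 5, a setting chosen after seeing the data (adjusted p = 0.522 by limma). The striatal markers stood in the same order among ketamine mice, highest in mouse 3 and lowest in mouse 9, with 11 of 12 higher and 1 lower in ketamine. Scn1a, Scn2b and Scn3b, each with a lower mean in ketamine, stood in this order too. The part of the striatal markers in the Scn3a values was not tested.

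The beta subunit genes had the smallest differences. Scn2b, whose product is bound to the alpha subunit by a disulphide bond, had 10184, 9492 and 7294 normalized counts in saline mice 1, 6 and 10, against 9496, 8636 and 5902 in ketamine mice 3, 5 and 9. Mouse 9 was again the lowest, and mice 3 and 5 lay within the saline range. The log2 fold change was -0.18 (standard error 0.222, 95% confidence interval -0.70 to 0.34, adjusted p = 0.999 by limma, exact permutation p = 0.6), and 0.03 without mouse 9. Scn3b, whose product binds the alpha subunit without such a bond, had 3701, 3734 and 4811 normalized counts in saline mice 1, 6 and 10, against 4388, 3954 and 3466 in ketamine mice 3, 5 and 9. It varied least, with 1.39 times between the highest and the lowest mouse, against 1.73 for Scn2b and 3.06 for Scn1a. Its log2 fold change was -0.05 (standard error 0.16, 95% confidence interval -0.42 to 0.33, adjusted p = 0.999 by limma, exact permutation p = 0.7).

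**Figure D2:**
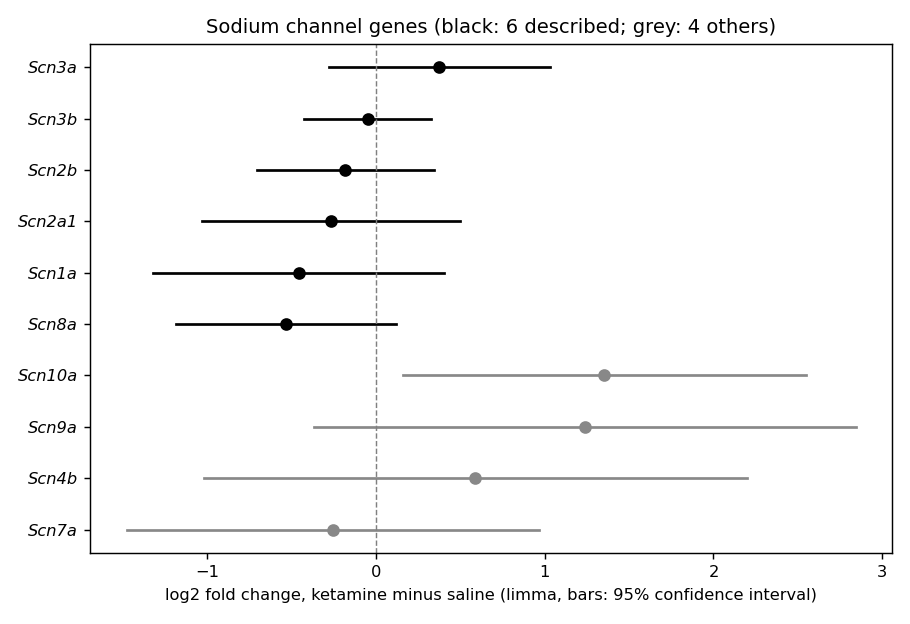
Log2 fold change of ketamine against saline (horizontal axis) by limma for the 6 sodium channel genes (black) and 4 other family genes (grey), with 95% confidence intervals. The intervals of all 6 black points include 0, and that of Scn10a does not before adjustment.

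Ketamine mouse 9 was low in long genes as a class. The 4 alpha subunit genes have between 9259 and 12579 bases of exon, which places them among the 1605 tested genes over 8 kb. The median log2 deviation of those genes from the mean of the 6 mice was -0.43 in ketamine mouse 9 and -0.06 in saline mouse 10, and between 0.05 and 0.21 in the other 4 mice. Genes under 2 kb went the other way, at 0.28 in mouse 9. Scn1a, Scn2a1 and Scn8a deviated by -1.13, -0.72 and -0.82 in mouse 9, further than the median long gene, and Scn3a by -0.44, about as far as it. The shorter Scn2b, with 4562 bases, deviated by -0.50 in mouse 9, lower than Scn3a and further than the -0.15 of genes of 4 to 8 kb. Scn3b, of like length, deviated by -0.20. Length was not part of the fit.

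**Figure D3:**
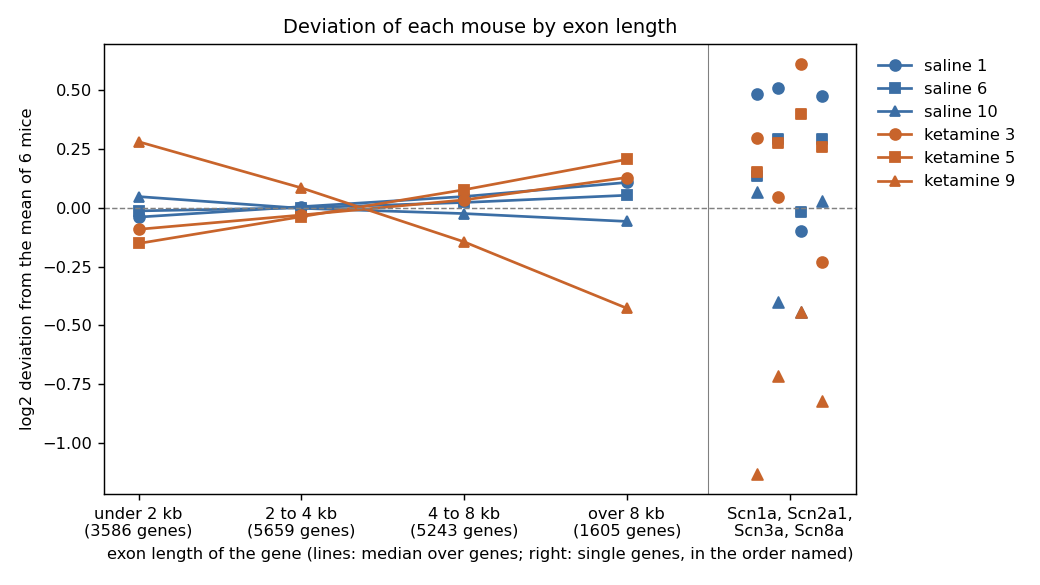
Median log2 deviation from the mean of the 6 mice (vertical axis) for tested genes in 4 classes of exon length, a line for each mouse, with the single values of Scn1a, Scn2a1, Scn3a and Scn8a at the right. Ketamine mouse 9 falls from 0.28 in genes under 2 kb to -0.43 in genes over 8 kb, and the other mice stay between -0.15 and 0.21.

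In an alternative chosen after seeing the data, each library was centred on the median deviation of genes of like exon length, in 10 bins. The log2 fold changes were then -0.47 for Scn8a, -0.39 for Scn1a, -0.20 for Scn2a1, 0.44 for Scn3a, -0.17 for Scn2b and -0.04 for Scn3b, with none called. The spread shrank for the long genes, from a standard error of 0.278 to 0.153 for Scn8a and from 0.28 to 0.155 for Scn3a. On this scale the ketamine group lay wholly below the saline group for Scn8a, as for 5.67% of all genes, and wholly above it for Scn3a, as for 6.53% of all genes. Their adjusted p-values by limma were 0.556 and 0.588. Scn1a and Scn2a1 still overlapped between the groups, at -0.70 and -0.29 in mouse 9, and so did Scn2b, at -0.44 there.

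A comparison of the alpha subunit genes within each library does not depend on its size factor. Of the normalized counts per kb of these 4 genes, Scn2a1 made up 48.0%, 47.9% and 39.9% in saline mice 1, 6 and 10, against 47.0%, 47.3% and 49.2% in ketamine mice 3, 5 and 9. Scn8a made up 33.8%, 34.4% and 38.6% in the saline group, against 27.9%, 33.6% and 32.8% after ketamine, where mouse 5 lay close to the lowest saline mouse. Scn1a took between 13.5% and 17.4% in the saline group, against 11.6% to 17.6% after ketamine. The share of Scn3a was 3.37%, 4.13% and 4.13% in the saline group, against 7.43%, 5.51% and 6.36% after ketamine. The groups did not overlap for the shares of Scn8a and Scn3a, which as parts of 1 total are not independent of each other. How many other genes would separate in this way was not computed. The make-up of the alpha subunit transcripts was thus led by Scn2a1 and Scn8a in every mouse.

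**Figure D4:**
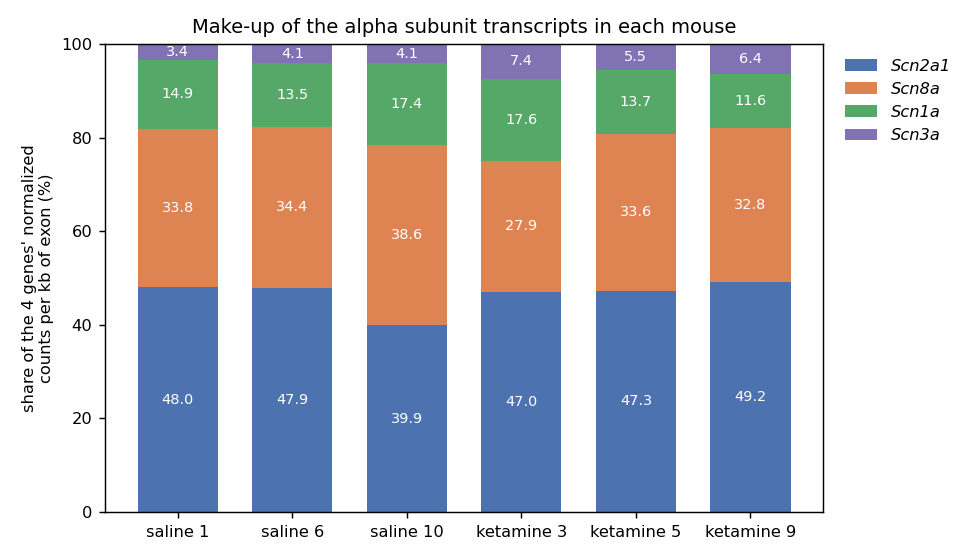
Share of each alpha subunit gene in the normalized counts per kb of exon of the 4 genes together (vertical axis, percent), a bar for each mouse. Scn3a takes 3.37% to 4.13% in saline mice and 5.51% to 7.43% in ketamine mice.

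Ratios between genes were compared in 4 pairs, with exact two-sided permutation tests whose smallest p is 0.1 with 3 mice against 3. The log2 ratio of Scn3a to Scn2a1 was -3.39, -3.09 and -2.83 in saline mice 1, 6 and 10, against -2.22, -2.66 and -2.51 in ketamine mice 3, 5 and 9. It was higher in all ketamine mice, by 0.64 on average (exact permutation p = 0.1, adjusted p = 0.4 over the 4 pairs). Of all genes tested, 3% had a ratio to Scn2a1 that was higher in every ketamine mouse and 0.788% one that was lower. The log2 ratio of Scn8a to Scn2a1 averaged -0.09 ± 0.256 with saline and -0.35 ± 0.132 with ketamine (SD, n = 3 each, exact permutation p = 0.2, adjusted p = 0.4). The ratios of Scn1a to Scn2a1 and of Scn2b to Scn3b differed by -0.19 and -0.13 on the log2 scale, with groups that overlapped (exact permutation p = 0.6 each, adjusted p = 0.6 each). Without saline mouse 10, the ratio of Scn1a to Scn2a1 differed by -0.01, that of Scn8a to Scn2a1 by -0.12 and that of Scn2b to Scn3b by -0.40. The ratio of Scn3a to Scn2a1 stayed between 0.50 and 0.78 higher with each mouse left out in turn.

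The other 8 sodium channel genes were looked at as a list. Of them, 6 passed the filter of 10 normalized counts, and Scn4a, the skeletal muscle gene, and Scn11a, a sensory neuron gene, did not. limma and edgeR called 0 of the 6 and DESeq2 called 1, beside 1.11% of all genes. By limma, 3 had an unadjusted p under 0.05, beside 5.81% of all genes. Scn9a and Scn10a, known for their role in sensory neurons, had log2 fold changes of 1.24 and 1.35 (standard errors 0.683 and 0.508). Their levels were low, with at most 383 and 24.5 normalized counts in a mouse, and their adjusted p-values by limma were 0.99 and 0.788. Scn9a overlapped between the groups, at 383, 163 and 48.0 in ketamine mice 3, 5 and 9 against 48.3 to 80.1 with saline. Scn10a was higher in every ketamine mouse, as were 5.69% of all genes. Scn9a shared 180 exon bases with Gm13629 on the other strand, so its reads may include that gene's. Scn7a, a sodium-sensing relative, had a log2 fold change of -0.26.

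Scn4b, a beta subunit gene known for its high expression in striatum, had 2945, 2111 and 2268 normalized counts in saline mice 1, 6 and 10, against 9066, 4767 and 1109 in ketamine mice 3, 5 and 9. Its order among ketamine mice was that of the striatal markers, whose part was not tested. Scn1a, Scn2b, Scn3a and Scn3b had this order too. The fold change of Scn4b, 0.59 on the log2 scale, had a standard error of 0.684 (adjusted p = 0.999 by limma).

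Genes that place sodium channels at the axon initial segment and at nodes were compared with them. Of 10 such genes, 0 were higher and 10 lower in ketamine. Their median log2 fold change was -0.34, and no tool called any. Without mouse 9, 6 were higher and 4 lower, with a median of 0.03. Their summed level was 56180 in mouse 9 and between 93238 and 123920 in the other 5 mice. The smallest p-values were those of Cntnap1, a paranodal adhesion gene, with a log2 fold change of -0.45, and of the spectrin gene Sptan1 and the cell adhesion gene Nrcam, with -0.42 and -0.41. Ank3, the ankyrin G gene whose product holds the channels in place, had 8245, 6743 and 7902 normalized counts in saline mice 1, 6 and 10, against 8608, 9046 and 4613 in ketamine mice 3, 5 and 9. Mice 3 and 5 were above every saline mouse and mouse 9 below. Ank3 was chosen after its values were seen.

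Of 12 genes whose products bind or regulate the channels, or share their nodes, 2 were higher and 10 lower, with a median of -0.17. DESeq2, with 1.11% of all genes called, called 1, Fgf11, which encodes an intracellular fibroblast growth factor homologous factor. It had 452, 367 and 608 normalized counts in saline mice 1, 6 and 10, against 914, 833 and 777 in ketamine mice 3, 5 and 9, higher in every ketamine mouse, as were 5.69% of all genes. Its log2 fold change was 0.85 (standard error 0.203), with an adjusted p of 0.416 by limma, 0.426 by edgeR and 0.0491 by DESeq2. Fgf13, of the same family, was lower in every ketamine mouse, as were 4.66% of all genes, at 2990, 3766 and 3735 against 4699, 4410 and 4756. This came to -0.41 on the log2 scale, with a standard error of 0.138 (adjusted p = 0.71 by limma, 0.375 by DESeq2). Calm3, which encodes the channel-binding protein calmodulin, had the third smallest p of the list, with a log2 fold change of -0.21.

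The sodium leak channel and the sodium pump had no called gene by limma, edgeR or DESeq2. Nalcn, which encodes the leak channel, had a log2 fold change of 0.06, and its partners Unc79, Unc80 and Fam155a had -0.21, -0.15 and -0.19. Of 8 genes of the Na+/K+ pump and its modulators, 6 were higher and 2 lower, with a median of 0.06. Fxyd7, a pump modulator, had a log2 fold change of -0.68 (adjusted p = 0.797 by limma), and Fxyd6, of the same family, had one of 0.18.

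Each gene was also set beside the 12412 other genes that averaged 100 normalized counts or more, by the SD over the 6 mice of its log2 ratio to them. A small SD means that the ratio hardly varied. Scn2a1 was most like Gpr123, Ptprn2 and Npas2, at 0.0393, 0.0469 and 0.0561. Scn8a was most like Cacna1a, a presynaptic calcium channel gene, at 0.0544, then Gfod1 and Sort1. Hint3 and Dpp8 were among the genes most like Scn1a, at 0.0697 and 0.0786, and Scn3a was most like Fam184b, Bcr and Bend4, at 0.0836 to 0.104. For Scn2b the 3 genes were Ica1l, Pdpk1 and D630037F22Rik, and for Scn3b they were Ap3m1, Eml2 and Ahcyl2, from 0.0317 to 0.0468.

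The members were also set beside each other. The closest pair was Scn2a1 with Scn2b, at 0.209, followed by Scn2a1 with Scn8a at 0.233 and Scn1a with Scn8a at 0.286. Ranked by likeness to Scn2a1 among all genes compared, Scn2b came at place 403 and Scn8a at place 607. Scn2a1 came at place 448 for Scn8a, and Scn8a at place 469 for Scn1a. The least alike was Scn3a with Scn8a, at 0.552. Scn3b stood apart from Scn1a, Scn2a1 and Scn8a, at 0.478 to 0.521.

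The make-up of the tissue in other cell types was compared last. The sums of 6 microglial and 6 endothelial markers lay between 6930 and 8049 and between 5793 and 6715 normalized counts over all mice, and 7 astrocyte markers between 78902 and 119578. Of 12 cortical excitatory markers, 2 were higher and 10 lower in ketamine, with sums of 56407 to 79691 in saline mice and 38030 to 62642 in ketamine mice, lowest in mouse 3. All 8 GABAergic markers were higher, with sums of 25884 to 30353 in saline mice and 35139 to 53861 in ketamine mice. Their part in the sodium channel values was not tested.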

How the data were processed

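PLc RNA from 3 saline and 3 ketamine mice was sequenced as 100-base paired-end reads, which the authors aligned to mm9 with Tophat (2.0.11), counted per gene with HTSeq and normalised with DESeq2. Annotation, strand and filter settings are not given in the sources used here. What was deposited is therefore a signal: the count of each gene over its library's size factor, to 2 decimals. Whole reads were recovered by dividing by the value of 1 read, and 100% of values up to 1000 reads were whole within 0.1 reads. Groups and mouse numbers came from the sample titles, and nothing pairs the mice. The p-values set the difference between the groups against the spread between these mice. Each mouse gave its own library, so that spread also holds differences in dissection and library preparation.

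Gene models are those of GENCODE M1 on mm9, which held 37205 of the 37620 identifiers. Length is the union of a gene's exons. List genes were matched by name, with the symbol in the table tried first, and each came to 1 identifier.

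Log2(normalized count + 1) was compared by limma 3.58.1 (R 4.3.3, trended prior variance) over the 16127 genes that averaged 10 normalized counts or more. Tests were two-sided and p-values were adjusted by Benjamini-Hochberg across the genes tested, and the threshold was 0.05. Low genes have their change understated on this scale. edgeR 4.0.16 and DESeq2 1.42.0 were run on the recovered reads as alternatives, beside other pseudocounts, filters and scalings, and with each mouse left out. The scripts were tested on simulated data. The study's own test was DESeq2, which is not the main test here because the deposited values are not counts.

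Named are the 6 genes, the other family and leak genes that passed the filter, and in partner and pump lists the genes called by any tool and the 3 with the smallest p, with the 3 genes most alike to each member and the markers Slc17a7, Pvalb and Drd1. Some items that this rule takes in are not reported here. Genes and lists were chosen with earlier results of these data known.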

Additional observations from a re-analysis of the deposited data

How the results depend on the processing

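No paired analysis was possible because the groups share no mouse number. None of the 6 genes was called under any of the 18 alternatives, 16 of them planned. Over all genes, DESeq2 called 179 where limma and edgeR called 0. The cause was not tested. With each mouse left out in turn, limma called between 0 and 1 genes, with 1 called without ketamine mouse 5 and 1 without ketamine mouse 9. The log2 fold changes then ranged from -0.72 to -0.01 for Scn1a, from -0.53 to 0.0266 for Scn2a1, from 0.17 to 0.69 for Scn3a, from -0.79 to -0.25 for Scn8a, from -0.32 to 0.025 for Scn2b and from -0.13 to 0.0757 for Scn3b. The sign of Scn2a1 and Scn2b turned without ketamine mouse 9, and that of Scn3b without ketamine mouse 9 (0.0401) or saline mouse 10. The cause of these turns was not tested. Without ketamine mice 3 and 5, added after seeing the data, Scn3a turned to -0.25, and Scn1a, Scn8a, Scn2a1, Scn2b and Scn3b came to -1.36, -1.09, -0.85, -0.59 and -0.23 (adjusted p = 0.0906 to 0.56 by limma, Scn3a included). The ketamine group is then mouse 9 alone, assumed to vary like the saline mice. With each mouse left out, the log2 ratios to Scn2a1 differed by -0.37 to -0.01 for Scn1a, 0.50 to 0.78 for Scn3a and -0.35 to -0.12 for Scn8a. The log2 ratio of Scn2b to Scn3b ranged from -0.40 to 0.0297, and turned without saline mouse 1. Pseudocounts, filters, scalings and the trend changed no sign or call of the 6 genes. With 3 mice a group, intervals as wide as that of Scn1a leave changes of more than 2-fold undetected.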
